A study of Rattus norvegicus with 6 samples.

Results

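The insulin-like growth factor (IGF) system was followed through 10 genes of the cultured newborn rat ovary: the ligands Igf1 and Igf2, the receptors Igf1r, Igf2r and Insr, and the binding proteins Igfbp2, Igfbp3, Igfbp4, Igfbp5 and Igfbp7. Every probe set annotated with exactly 1 of these symbols was taken, which gave 11 of the 27342 probe sets on the array, with 2 for Insr and 1 for each other gene. Transcripts were measured in 6 samples. In 3 of them, ovaries of 0-day-old female Sprague-Dawley pups (under 8 hours old) were cultured whole for 24 h with human connective tissue growth factor (CTGF) at 500 ng/ml, and in the other 3 they were cultured for the same time without treatment. A sample pooled 2 to 3 ovaries of different pups of a litter, and each of the 3 culture dates gave 1 CTGF pool and 1 control pool, called culture batches 1 to 3. The comparison addresses which ovarian transcripts CTGF alters at a time before follicle morphology has visibly moved.

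IGF1 and IGF2 are small secreted proteins related to insulin. Both act mainly through the IGF1 receptor, a tyrosine kinase that signals to the PI3K-Akt and Ras-MAPK pathways, while the IGF2 receptor takes IGF2 up for degradation. The IGF binding proteins hold the ligands in extracellular fluid and matrix, and proteases that cut them set the ligands free. In the ovary the system is known for its part in granulosa cell growth and in the response to follicle-stimulating hormone. CTGF itself carries an IGF binding protein domain at its amino terminus, by which it was once counted with the IGF binding proteins.

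The values are log2 signals of the array, so a difference of 1 is a doubling. As deposited, each probe set had the same average of its CTGF and control array in the 3 batches, to within 0.005. Differences between culture dates are thus missing from the SDs given here, and within a batch the CTGF and control values lie at the same distance on either side of 1 common level. It follows that the CTGF and control arrays of a probe set were free of overlap only where all 3 batches had the same direction. The array medians lay between 5.82 and 5.84. The level of background was read from 46 genes of other organs, such as retina, pancreas and lung, whose 95th percentile was a signal of 44.4 on the linear scale, or 5.47 in log2. All 11 IGF probe sets lay above it in mean signal. The labelled tissue was checked by markers. Above this level were 7 of 8 measured oocyte genes, with Ddx4, Dazl and Zp3 among them, 9 of 10 pregranulosa genes and 10 of 10 stromal genes, against 1 of 7 liver genes and 1 of 5 erythroid genes. Of the defining pregranulosa genes, Foxl2 and Nr5a1 were not analysed here.

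No IGF probe set differed between CTGF and control ovaries beyond the spread between batches. With limma and the culture batch as a block, 0 of 11 passed an adjusted p of 0.05, against 0% of all 27342 probe sets. At an unadjusted p under 0.05 the IGF count was again 0, beside 3.35% of all probe sets (915). The 2-way test of the methods, which does not share spread between probe sets, called 1147 probe sets at an unadjusted p under 0.05 and 0 after adjustment, with 0 of the 11 in both cases. The study's criteria, an unadjusted p with a minimum ratio and difference of the un-logged means, called 0 of the 11 and 0.435% of all probe sets (119) with the p of limma. With the p of the 2-way test, as in the methods, they called 30 probe sets and 0 of the 11. The mean difference was above control for 4 IGF probe sets, below it for 6 and 0 for 1. Their median was -0.033 on the log2 scale, beside -0.0033 for all probe sets. None of the 11 had the same direction in all 3 batches, so the CTGF and control arrays overlapped for each of them, while 20.3% of all probe sets had 1 direction throughout (9.41% above control and 10.9% below). A paired exact permutation test over 3 batches cannot give a two-sided p under 0.25, so it was not used for single genes.

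**Figure D1:**
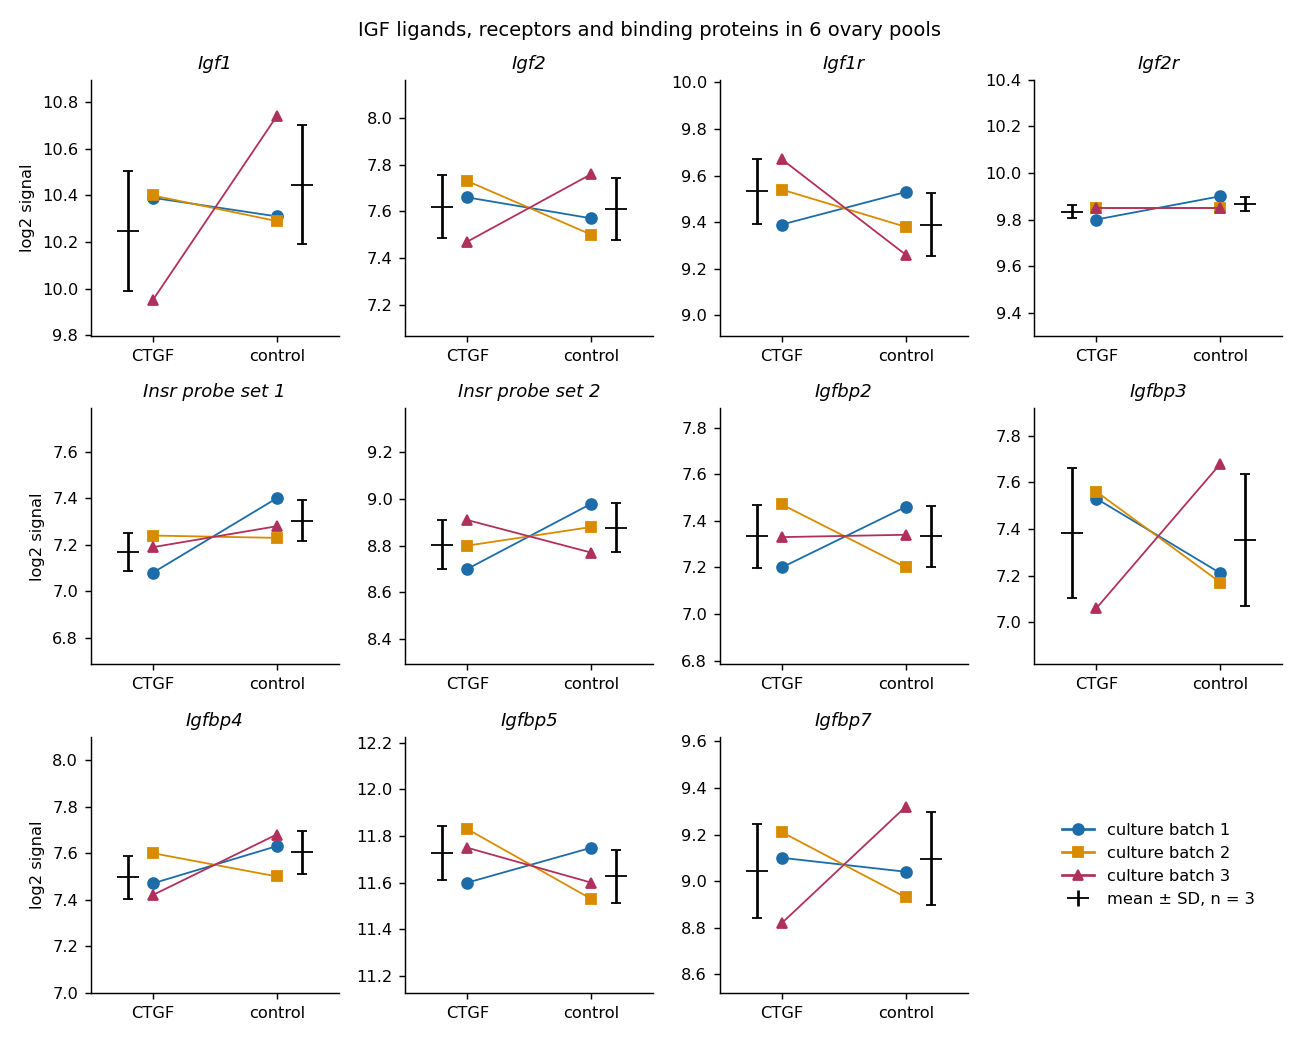
Log2 signal (vertical axis, the same span of 1.1 in each panel) of the 11 IGF probe sets in CTGF and control ovary pools, with a line joining the pools of a culture batch and black bars for the mean ± SD (n = 3). The lines of each panel cross near 1 point, since batch averages are equal, and for Igf1 and Igfbp3 the batch 3 pools are the outermost points on both sides.

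Igf1, the ligand that acts through the IGF1 receptor (probe set 10894695), had log2 signals of 10.39, 10.40 and 9.95 in the CTGF pools of batches 1, 2 and 3, against 10.31, 10.29 and 10.74 in the control pools. In batches 1 and 2 the CTGF pool was slightly above its control, and in batch 3 the CTGF pool was the lowest of the 6 arrays and its control the highest. The mean was 10.25 ± 0.26 with CTGF and 10.45 ± 0.25 in controls (SD, n = 3 each). The difference of -0.20 (standard error 0.18, adjusted p = 0.994, limma) was the largest of the 11 in size and was negative in batch 3 alone, at 0.08, 0.11 and -0.79 in batches 1, 2 and 3. Without batch 3 it was 0.095. Its 95% interval, from -0.63 to 0.23, holds ratios of CTGF to control between 0.645 and 1.18. Among 14962 probe sets above background, 3.56% had a mean difference at least as large.

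Igf2, the ligand with high expression in fetal tissues (probe set 10726999), had 7.66, 7.73 and 7.47 in the CTGF pools and 7.57, 7.50 and 7.76 in the control pools. Here too the CTGF pool was above its control in batches 1 and 2 and below it in batch 3, with differences of 0.09, 0.23 and -0.29. The means were 7.62 ± 0.13 and 7.61 ± 0.13 (SD, n = 3 each), a difference of 0.01 (standard error 0.11, 95% interval -0.25 to 0.27, adjusted p = 0.994, limma). This interval holds ratios of CTGF to control between 0.840 and 1.21. It uses spread that limma shares between probe sets, and the SD of the 3 differences of Igf2 was 0.27.

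Igf1r, the tyrosine kinase receptor of both ligands (probe set 10707889), had 9.39, 9.54 and 9.67 in the CTGF pools, against 9.53, 9.38 and 9.26 in the control pools. The CTGF pool was below its control in batch 1 and above it in batches 2 and 3, and the 2 groups shared the range between 9.39 and 9.53. The mean difference of 0.14 (standard error 0.11, 95% interval -0.12 to 0.41, adjusted p = 0.994, limma) was the highest of the 11. Without batch 1 it was 0.285, and without batch 3 it was 0.01, so leaving out either pair moved it by more than 1.5 times.

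Igf2r, the receptor that clears IGF2 and also sorts lysosomal enzymes (probe set 10702996), was the steadiest member. Its log2 signals were 9.80, 9.85 and 9.85 in the CTGF pools and 9.90, 9.85 and 9.85 in the control pools. The pools of batches 2 and 3 did not differ at the 2 decimals deposited. The difference of -0.033 had the narrowest interval of the 11, from -0.19 to 0.12, which holds ratios between 0.876 and 1.09.

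Insr, the insulin receptor, which can form hybrid receptors with the IGF1 receptor, was measured by 2 probe sets. The first (10756229) had 7.08, 7.24 and 7.19 in the CTGF pools and 7.40, 7.23 and 7.28 in the control pools. The second (10756251) had 8.70, 8.80 and 8.91 in the CTGF pools and 8.98, 8.88 and 8.77 in the control pools. In batch 1 both were below control, by -0.32 and -0.28, and in batch 3 they had opposite signs, at -0.09 and 0.14. Without batch 1 the first had a mean difference of -0.04 and the second one of 0.03. With all batches the mean differences were -0.13 (standard error 0.08) and -0.07 (standard error 0.09), with 95% intervals of -0.34 to 0.07 and -0.30 to 0.15. Neither passed with limma (adjusted p = 0.994).

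Among the binding proteins, Igfbp3, the main carrier of IGFs in blood (probe set 10778390), varied most. It had 7.53, 7.56 and 7.06 in the CTGF pools, against 7.21, 7.17 and 7.68 in the control pools. The CTGF pools of batches 1 and 2 lay above both of their controls and the CTGF pool of batch 3 lay below all controls. The differences were 0.32, 0.39 and -0.62, and their mean was 0.03 (standard error 0.19, 95% interval -0.44 to 0.50). The interval holds ratios from 0.736 to 1.42 and was the widest of the 11. Without batch 3 the difference was 0.355, the only one of the 11 under an unadjusted p of 0.05 with any batch left out, and its adjusted p in limma was then 0.781.

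Igfbp7, a secreted protein of blood vessels and matrix that binds IGFs weakly (probe set 10772169), had 9.10, 9.21 and 8.82 in the CTGF pools and 9.04, 8.93 and 9.32 in the control pools. The order of the pools was that of Igfbp3, with differences of 0.06, 0.28 and -0.50, and the mean difference was -0.05 (standard error 0.15). Igfbp5, which binds to matrix (probe set 10928837), had 11.60, 11.83 and 11.75 in the CTGF pools and 11.75, 11.53 and 11.60 in the control pools. Its differences of -0.15, 0.30 and 0.15 had the signs of those of Igf1r, and their mean was 0.10 (standard error 0.10, 95% interval -0.14 to 0.34). It was 0.225 without batch 1 and 0 without batch 2.

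Igfbp4, an inhibitor of IGF action that is cut by the protease PAPP-A (probe set 10738140), had 7.47, 7.60 and 7.42 in the CTGF pools and 7.63, 7.50 and 7.68 in the control pools. The CTGF pool was the lower of its pair in batches 1 and 3 and the higher in batch 2, and the groups overlapped. The mean difference was -0.11 (standard error 0.09, 95% interval -0.32 to 0.10), which was -0.21 without batch 2 and -0.03 without batch 3. Igfbp2, a carrier with a preference for IGF2 (probe set 10924223), had 7.20, 7.47 and 7.33 in the CTGF pools and 7.46, 7.20 and 7.34 in the control pools. Its differences of -0.26, 0.27 and -0.01 cancelled to 0, with an interval of -0.26 to 0.26, and the mean was 0.13 without batch 1 and -0.135 without batch 2. In RefSeq's GRCr8 assembly Igfbp2 and Igfbp5 are neighbours on chromosome 9. The signs of their differences were the same in batches 1 and 2 and opposite in batch 3.

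**Figure D2:**
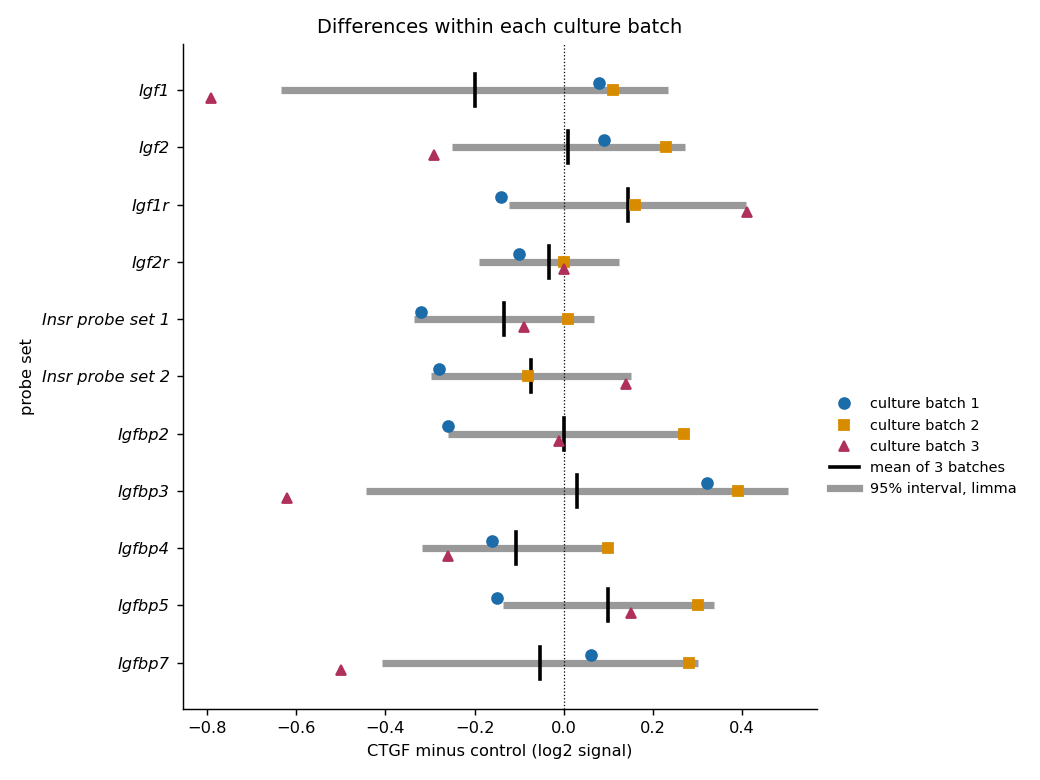
Difference between CTGF and control ovary pools in log2 signal (horizontal axis) for the 11 IGF probe sets (vertical axis), with circles for culture batch 1, squares for batch 2, triangles for batch 3, the mean (black line) and the 95% interval of limma (grey bar). Every interval includes 0, and the batch 3 points of Igf1, Igfbp3 and Igfbp7 lie at -0.79, -0.62 and -0.50.

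The difference between CTGF and control pools varied with the culture batch. Igf1, Igf2, Igfbp3 and Igfbp7 were all higher with CTGF in batches 1 and 2 and lower in batch 3, or 4 of 11, beside 13.1% of all probe sets. Igf1r and Igfbp5 were lower in batch 1 and higher in batches 2 and 3, or 2 of 11, beside 11.1%. In batch 2, 9 of the 11 were above control and 1 below, and in batch 3, 3 were above and 7 below. The median difference of the 11 was -0.14, 0.16 and -0.09 in batches 1, 2 and 3. Over the 14962 probe sets above background it was 0.01, 0 and -0.01. The difference was largest in size in batch 3 for 6 of the 11, and the share of all probe sets with this order was not counted. The SD of the differences over the 11 probe sets was 0.19 in batch 1, 0.15 in batch 2 and 0.36 in batch 3, beside 0.16, 0.16 and 0.19 over the 14962 probe sets above background. In batch 3, 0.401% of these 14962 had a difference at least as large in size as that of Igf1, 1.05% as that of Igfbp3 and 2.21% as that of Igfbp7. For the 0.41 of Igf1r, on the other side of 0, this was 4.15%, and 1.35% had a difference at or above it. Each batch has 1 pool of each kind, so the batches have no replicate of their own and these values describe single pairs of pools.

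Stromal markers took the same course in batch 3. Of 10 stromal genes, 10 were lower with CTGF in batch 3, between -1.08 and -0.18 with a median of -0.44, while in batches 1 and 2 the medians were 0.14 and 0.04 and 1 and 3 of the 10 were lower. Lum and Pdgfra, a matrix proteoglycan and a growth factor receptor of stromal cells, had -1.08 and -1.03 in batch 3. The summed linear signal of the 10 genes was 9270, 8980 and 7569 in the CTGF pools of batches 1, 2 and 3, against 8438, 8746 and 10366 in the control pools. Thus it was lowest in the CTGF pool and highest in the control pool of batch 3, as were Igf1, Igf2, Igfbp3, Igfbp4 and Igfbp7. Batch averages were equal as deposited, so for each gene these 2 extremes are 1 observation. Igfbp4 was also below control in batch 1, at -0.16. All 10 genes were above background, and their part in the IGF values was not tested. In whole ovaries fewer cells of a type and less RNA per cell cannot be told apart. Over the 3 batches the median of the 10 stromal genes was -0.07 and 0 passed with limma after adjustment or at an unadjusted p under 0.05.

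**Figure D3:**
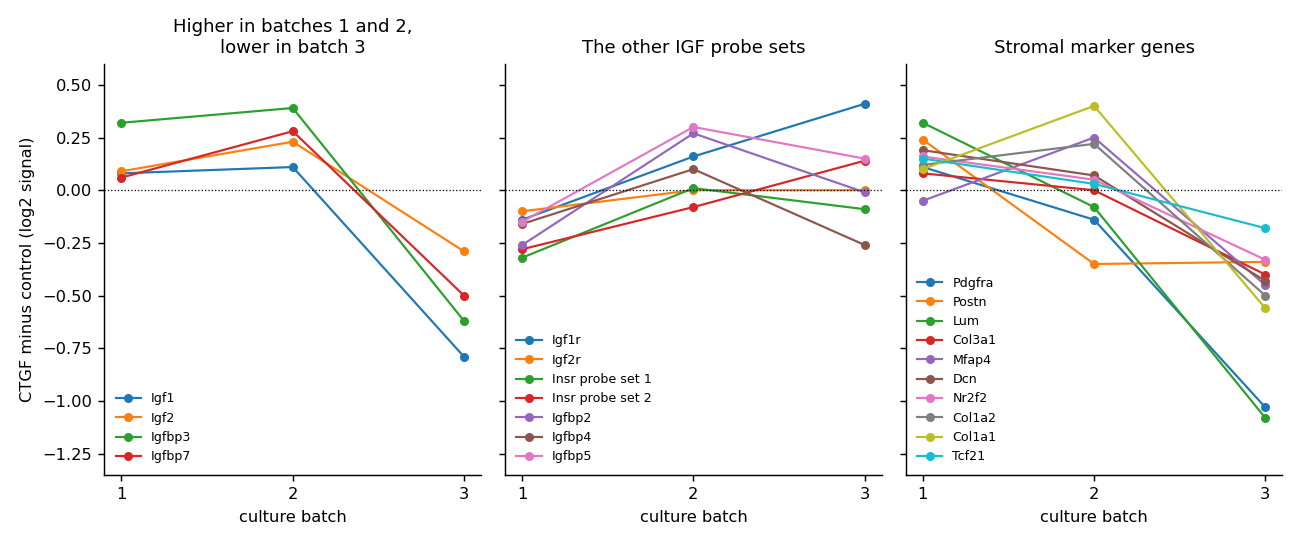
Difference between CTGF and control ovary pools in log2 signal (vertical axis) by culture batch (horizontal axis) for the 4 IGF genes higher in batches 1 and 2 and lower in batch 3 (left), the other 7 IGF probe sets (middle) and 10 stromal marker genes (right). All 10 stromal genes and the 4 genes on the left lie below 0 in batch 3.

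To show what stands before the starts of the 4 genes that share this order, their promoters are given from RefSeq (GRCr8, 250 bases before to 50 after a start). Igf2 has 2 such entries, and the one that holds the most of the motifs searched is printed. Capitals mark matches on either strand to TATAAA, to GGGCGG (the GC box bound by Sp1), to TGANTCA (AP-1), to CATTCC (TEAD factors), to CAGAC (Smad factors) or to CACGTG (E-box factors).
Igf1, chr7:24172282-24172581 (plus strand): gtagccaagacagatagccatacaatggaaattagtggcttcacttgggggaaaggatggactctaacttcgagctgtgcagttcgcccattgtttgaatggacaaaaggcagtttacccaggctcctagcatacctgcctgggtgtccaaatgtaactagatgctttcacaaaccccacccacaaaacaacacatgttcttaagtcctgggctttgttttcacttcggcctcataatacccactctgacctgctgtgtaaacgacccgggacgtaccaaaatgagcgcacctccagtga
Igf2, chr1:207250426-207250725 (minus strand): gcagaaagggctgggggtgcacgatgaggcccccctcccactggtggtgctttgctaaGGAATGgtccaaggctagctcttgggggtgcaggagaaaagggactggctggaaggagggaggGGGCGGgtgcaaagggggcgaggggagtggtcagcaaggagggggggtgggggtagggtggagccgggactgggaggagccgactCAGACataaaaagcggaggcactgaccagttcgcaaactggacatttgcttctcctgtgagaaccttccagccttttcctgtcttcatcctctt
Igfbp3, chr14:86277895-86278194 (minus strand): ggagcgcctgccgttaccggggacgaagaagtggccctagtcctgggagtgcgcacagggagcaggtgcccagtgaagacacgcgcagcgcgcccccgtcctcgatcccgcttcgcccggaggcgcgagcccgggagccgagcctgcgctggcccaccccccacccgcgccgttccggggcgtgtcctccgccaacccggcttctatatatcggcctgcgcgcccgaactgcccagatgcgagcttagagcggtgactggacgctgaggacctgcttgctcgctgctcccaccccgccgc
Igfbp7, chr14:31091486-31091785 (plus strand): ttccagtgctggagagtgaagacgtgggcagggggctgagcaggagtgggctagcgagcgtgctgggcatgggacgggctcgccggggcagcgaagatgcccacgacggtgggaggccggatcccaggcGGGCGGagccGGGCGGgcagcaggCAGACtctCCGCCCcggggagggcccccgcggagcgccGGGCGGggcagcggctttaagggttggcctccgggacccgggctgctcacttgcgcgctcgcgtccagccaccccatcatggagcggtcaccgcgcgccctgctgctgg
No motif is common to the 4 printed sequences. Igf1 and Igfbp3 hold none of the 6 in this window, Igf2 holds the GC box, the TEAD motif and the Smad motif once each, and Igfbp7 holds the GC box 4 times and the Smad motif once. No matches overlapped. The GC content was 48.3% for Igf1, 60.7% for Igf2, 71.7% for Igfbp3 and 74.3% for Igfbp7, beside a median of 51.7% over 33469 promoters of the same length. All 11 promoter entries of the 10 genes were searched. GGGCGG was in 6 of them and in 33.1% of all promoters, CAGAC in 4 and 50.1%, CACGTG in 3 and 6.42%, TATAAA in 1 and 14.2%, CATTCC in 1 and 14.2%, and TGANTCA in 0 and 7.33%. These matches are descriptions of letters, not of binding.

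The genes with the most similar course to Igf1 over the 3 batches, out of 9318 other probe sets with 1 symbol above background, were Lss, Slit3 and Cd93. Lss, the lanosterol synthase of cholesterol synthesis, had differences of 0.07, 0.10 and -0.84, a root mean square distance of 0.030 from Igf1. Slit3, a secreted guidance protein, had 0.07, 0.15 and -0.75 (distance 0.033), and Cd93, a receptor of endothelial cells, had 0.02, 0.04 and -0.78 (distance 0.054). The nearest to Igf2 were Ramp2, a partner of the calcitonin-like receptor, with 0.09, 0.23 and -0.28 (distance 0.0058), then Phf11 (distance 0.028) and Bmpr1b, a BMP receptor (distance 0.030). Likeness over 3 values is easily reached among so many probe sets and is given as a description.

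**Figure D4:**
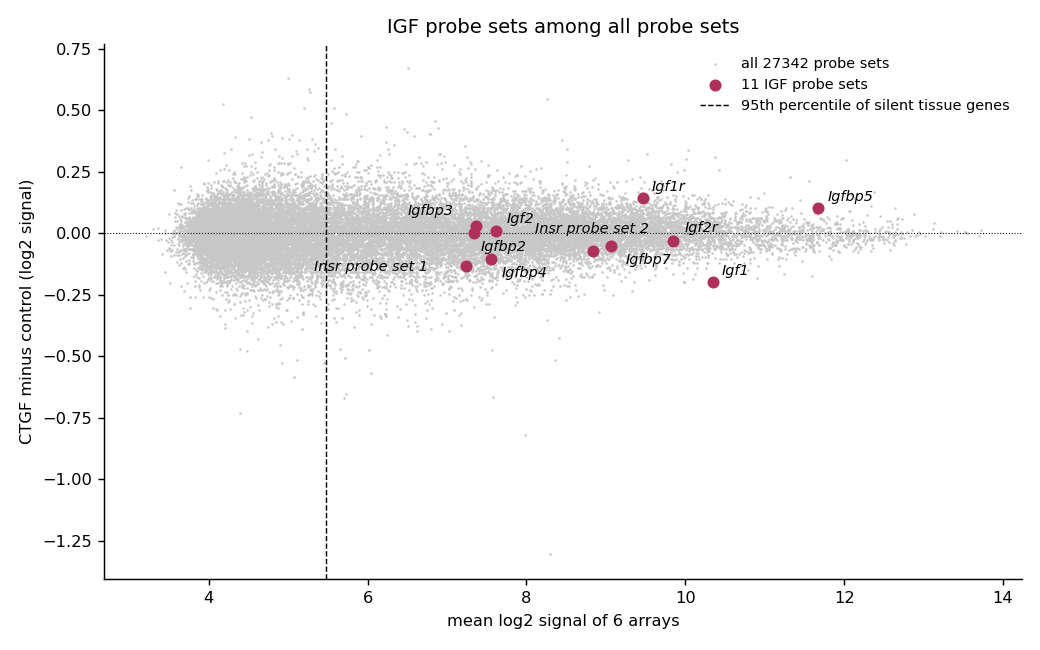
Difference between CTGF and control ovary pools (vertical axis, log2 signal averaged over 3 batches) by level over 6 arrays (horizontal axis, mean log2 signal) for all probe sets (grey) and the 11 IGF probe sets (red). The IGF points lie between -0.20 for Igf1 and 0.14 for Igf1r, all right of the background level at 5.47 (dashed line).

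The rest of the IGF family was mostly at background. Of 9 further genes measured that belong to the family or are named after it, 2 lay above background. Igfbp6, a binding protein with a preference for IGF2, had a difference of 0.02. Igf2bp1, which binds Igf2 messenger RNA and is not an IGF binding protein, had 0.06. Both insulin genes were below background (Ins1 -0.09 and Ins2 -0.11). So were Igfbp1, the neighbour of Igfbp3 on chromosome 14 (0.04), Igfals, a partner of Igfbp3 in blood (-0.03), and Igflr1 (0.16). These values below background do not give a direction. Of the 9 genes, 0 passed with limma after adjustment or at an unadjusted p under 0.05.

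Pappa, the protease that cuts Igfbp4, was the member of the protease list with the smallest p. It had log2 signals of 5.38, 5.48 and 5.41 in the CTGF pools, against 5.69, 5.59 and 5.66 in the control pools. Its differences were -0.31, -0.11 and -0.25, so the CTGF pools were all below the control pools. Of all probe sets, 10.9% were below control in all 3 batches. The mean was -0.22 (standard error 0.07, adjusted p = 0.994, limma), but at a mean signal of 46.4, close to the background level of 44.4. Furin, which processes precursors of growth factors and receptors, had 0.07, 0.11 and 0.11, and Timp1, an inhibitor of metalloproteases, had 0.09, 0.35 and 0.02. Mmp2, a gelatinase of stroma that can cut binding proteins, had 0.12, -0.11 and -0.57. Of 17 proteases and inhibitors measured, 14 with a signal above background, 10 were above control and 6 below, with a median of 0.02. In limma 1 (Pappa) was under an unadjusted p of 0.05, beside 3.35% of all probe sets, and 0 passed after adjustment.

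Downstream of the receptors, 36 genes of adaptors and the PI3K-Akt-mTOR pathway were measured, 33 with a signal above background. Of the 36, 24 were above control and 11 below, with a median of 0.03. With limma 0 passed after adjustment or at an unadjusted p under 0.05. Pik3cb, a catalytic subunit of PI3K, had 0.28, 0.08 and 0.15 in the 3 batches, a mean of 0.17 (standard error 0.07, adjusted p = 0.994, limma). Ptpn1, a phosphatase that acts on the insulin and IGF1 receptors, had 0.02, 0.24 and 0.12. Rack1, a scaffold bound by the IGF1 receptor, had -0.15, -0.16 and 0.04, and Rptor, a subunit of mTOR complex 1, had -0.20, -0.21 and 0.11. In the Ras-MAPK arm, 6 genes were above control and 8 below of 14, with a median of -0.0083. Spry4, a feedback inhibitor, had 0.20, 0.19 and 0.06, Hras -0.28, -0.02 and -0.13, Map2k2, a kinase of the cascade, -0.24, -0.19 and 0.06, and Dusp6, a phosphatase induced by the pathway, 0.08, -0.04 and -0.61. Of these 14 genes, 0 passed with limma after adjustment or at an unadjusted p under 0.05.

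FoxO transcription factors are held out of the nucleus when the receptors are active. Of 20 FoxO factors and targets, 13 were above control and 7 below, with a median of 0.01. Above background were 14 of the 20, and the counts include the genes below it. Foxo4 had 0.20, 0.25 and 0.00 in the 3 batches, Foxo1 -0.08, 0.24 and 0.20, the ubiquitin ligase Fbxo32 -0.09, -0.03 and -0.17, and Bcl2l11, which promotes apoptosis, -0.30, -0.04 and -0.05 at a signal below background. Of the 20, 0 passed with limma after adjustment or at an unadjusted p under 0.05.

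Of 13 genes of the growth hormone axis and other regulators of Igf1, 9 were above control and 4 below, with a median of 0.03. These counts include genes at background, whose values do not give a direction, since 9 of the 13 had a signal above it. Cish, a feedback inhibitor of growth hormone signaling, had 0.08, 0.20 and 0.13, and Stat5a, a transcription factor of the same pathway, had 0.30, 0.41 and -0.10. Esr2, an estrogen receptor of granulosa cells, had 0.14, 0.21 and -0.05. Prlr, the prolactin receptor, was the 1 gene under an unadjusted p of 0.05, at 0.14, 0.22 and 0.12, with a signal below background. Of all probe sets 3.35% were under that p. In limma 0 of the 13 passed after adjustment.

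Igf2 is imprinted, expressed from the paternal copy, and lies beside H19, which is expressed from the maternal copy. Of 16 imprinted growth genes, 5 were above control and 11 below, with a median of -0.07. Above background were 10 of the 16, and the counts include the genes below it. Cdkn1c, an imprinted inhibitor of the cell cycle in the same imprinted region, had log2 signals of 7.72, 7.77 and 7.78 in the CTGF pools, against 8.02, 7.96 and 7.96 in the control pools. Its differences were -0.30, -0.19 and -0.18, and the mean was -0.22 (standard error 0.07, adjusted p = 0.994, limma). With 1 direction in all 3 batches the CTGF pools lay below all controls, a direction shared by 10.9% of all probe sets. It was the 1 gene of the 16 under an unadjusted p of 0.05, beside 3.35% of all probe sets, and 0 passed after adjustment in limma. H19 had 11.62, 11.52 and 11.37 in the CTGF pools and 11.56, 11.66 and 11.81 in the control pools, a course of 0.06, -0.14 and -0.44 over the batches. In batch 3 both Igf2 and H19 were thus below control. Plagl1, a transcription factor that regulates Igf2 and H19 in the mouse, had -0.01, -0.03 and -0.46, and Nnat had -0.16, -0.12 and -0.04 at a signal below background.

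**Figure D5:**
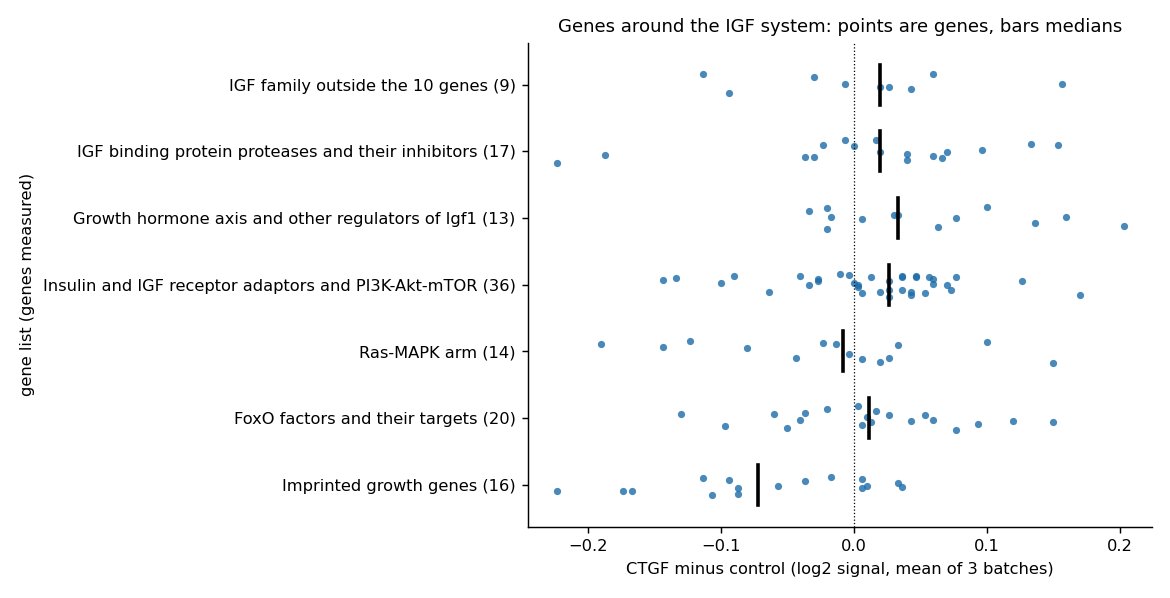
Difference between CTGF and control ovary pools (horizontal axis, log2 signal, mean of 3 culture batches) for the genes of 7 lists around the IGF system (vertical axis, with the number of genes measured), with the median of each list (black bar). The medians lie between -0.07 for imprinted growth genes and 0.03 for the growth hormone axis, and the points furthest left are Pappa and Cdkn1c at -0.22.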

How the data were processed

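Transcripts of cultured ovaries were measured on Rat Gene 1.0 ST arrays in 3 CTGF and 3 control pools. The deposited log2 values are the authors' summaries of each probe set, made in Partek with RMA, adjusted for GC content per the methods, and the differences between culture batches had been taken out of them before deposit, a step the methods do not describe. The pairing by batch comes from the labels and the methods. Differences are CTGF minus control from lmFit and eBayes of limma 3.58.1 under R 4.3.3 (batch as a block, no filter, Benjamini-Hochberg over 27342 probe sets). The residual degrees of freedom were 2 and the prior ones 4.22. The number of arrays limits the precision.

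Symbols came from the platform annotation. It gave 1 symbol to 15097 probe sets and several to 323, and 11922 are without a name here. Of the 15097, 15067 matched a GRCr8 gene in RefSeq by Entrez number. In other lists a gene is represented by its probe set of highest mean signal.

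The IGF genes and the lists were chosen with earlier results of these data known. Named are all IGF probe sets, up to 4 genes of each other list with the smallest p, and the 3 probe sets nearest to Igf1 and to Igf2. Further family members and the cell type markers were picked by name once their values were known. Alternatives tried were a fit with no replicate block, quantile normalization, centred array medians, a filter at the background level, limma's robust fit with an intensity trend, the 2-way test of the methods, each batch left out, and other thresholds (unadjusted p, and the study's criteria, which also ask for a ratio of un-logged means over 1.2 or under 0.83 and a difference over 10). On simulated data for this comparison over 27342 probe sets, an adjusted p under 0.05 found 10% of 50 with a 1.2-fold change, 98% of 50 with a 1.5-fold change, and 100% of 50 each with 2-fold and 4-fold changes. The simulation drew independent normal noise with the spreads that limma had estimated, for probe sets picked at random. All of these changes were made together in the same simulated data, which makes the adjustment easier to pass. The shares thus do not give the recovery of a single changed probe set. Nor do they give it for probe sets of wide spread, such as Igf1 and Igfbp3 (standard errors 0.18 and 0.19). In the data Cpa3, at -0.82 (standard error 0.23), had an adjusted p of 0.994 in limma.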

Additional observations from a re-analysis of the deposited data

How the results depend on the processing

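In limma 0 of the 11 IGF probe sets and 0 of all probe sets passed after adjustment under each alternative run. With other thresholds all probe sets gave 915 calls at an unadjusted p under 0.05 and 119 at the study's criteria, or 30 where these take the p of the 2-way test, and the IGF probe sets gave 0 at each. Without the replicate block the count at an unadjusted p under 0.05 was 4415, with 0 of the 11, and no IGF call was altered by it. The smallest adjusted p of an IGF probe set was then 0.353. That fit counts degrees of freedom that the removal of the batch means had already used. The filter on low signal, which tests 14962 probe sets, gave 425. With a batch left out the count was 645 to 1244 for all probe sets and 0 to 1 for the IGF probe sets, the 1 being Igfbp3 without batch 3.

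With quantile normalization 1 IGF probe set had the same direction in all 3 batches. Of all 27342 probe sets, 3039 were then above control throughout and 2954 below. Without batch 1, 2 or 3, 2, 3 and 5 IGF probe sets had it in the remaining pairs, which are fewer. Of all probe sets 5774, 6033 and 6317 were then above control throughout, and 6178, 5801 and 7090 below. Of 66 IGF values under alternatives that kept all batches, 0 took the other sign. Igfbp2, at 0 as reported, was 0.0081 with quantile normalization and 0.0133 with array medians centred. Of 33 with a batch left out, 7 took the other sign, none of them past the threshold before or after. The differences ranged from -0.355 to 0.095 for Igf1, -0.10 to 0.16 for Igf2, -0.18 to 0.03 for the second Insr probe set, -0.15 to 0.355 for Igfbp3 and -0.22 to 0.17 for Igfbp7. They ranged from -0.135 to 0.13 for Igfbp2, 0 to 0.225 for Igfbp5, -0.21 to -0.03 for Igfbp4 and -0.205 to -0.04 for the first Insr probe set. The median of the 11 ranged from -0.135 to 0.01.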

Other observations

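Other cell type markers did not all take the course of the stromal genes in culture batch 3. Of 8 oocyte genes 1 was lower with CTGF in that batch, Dppa3 at -0.33, and the median was 0.13. Of 10 pregranulosa genes 6 were lower, with a median of -0.03, between -0.56 for Amh, at a signal below background, and 0.21 for Amhr2. Of 5 endothelial genes 3 were lower, with a median of -0.36, which was nearer to that of the stromal genes (-0.44). The 3 were Esam, Emcn and Cdh5, at -0.61, -0.64 and -0.36, the last below background. Tie1 and Tek had 0.03 and 0.08. Of 5 smooth muscle genes 3 were lower, with a median of -0.01, between -0.61 for Des and 0.03 for Myh11. Of 8 surface epithelium and mesonephros genes 3 were lower, with a median of 0, between -0.61 for Pax8 and 0.21 for Krt18, the last below background. Of 9 leukocyte genes 6 were lower, with a median of -0.10. Cpa3, a protease of mast cells, had -0.14, -0.80 and -1.52 in the 3 batches, and Tpsb2, another mast cell protease, had 0.15, -0.37 and -0.07 at a signal below background. In limma 0 of these marker genes passed after adjustment. At an unadjusted p under 0.05 there were 1 oocyte gene, Kit, and 2 leukocyte genes, Cpa3 and Cd3e, the last with a signal below background. There were 0 of the pregranulosa, endothelial and smooth muscle genes and 0 of the surface epithelium and mesonephros genes. Of all probe sets 3.35% were under that p.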
